A study of Mus musculus with 8 samples.

Results

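A group of 10 genes of dietary lipid absorption was examined in sorted intestinal epithelial cells (IECs) of mice that lack CD1d. They were chosen by name as the rows of the deposited count table for Apoa1, Apoa4, Apob, Apoc3, Mogat2, Dgat1, Dgat2, Npc1l1, Abcg5 and Abcg8. All 10 were found among 25239 listed genes and all 10 were among the 15446 genes tested. CD1d presents lipid antigens to natural killer T (NKT) cells, which do not develop without it, and the comparison addresses how the absence of CD1d and of these cells alters the epithelium. Bulk RNA-seq was performed on live EpCAM+ cells, negative for CD45, CD31 and Ter119, that had been sorted from crypt preparations of the proximal small intestine. The CD1d-KO group (genotype CD1d1/2 KO) and the WT group (genotype C57BL/6Jax) held 4 samples each, with no treatment. Each sample came from 1 mouse, and the mutation was present in every cell of the body. In these samples, an effect in the epithelium and an effect through immune cells therefore cannot be told apart. The study reports, from separate qPCR, that genotype differences in immune and metabolic genes were lost in established organoids. It also states that its mice were not littermates, which may have affected their microbiota.

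Fat absorption by the enterocyte follows a fixed route. Fatty acids and monoacylglycerol released in the lumen are taken up, rebuilt into triglyceride in the endoplasmic reticulum by Mogat2 and then Dgat1 or Dgat2, and loaded onto ApoB48, the intestinal form of the Apob product, by the transfer protein Mttp. The resulting chylomicrons carry ApoA-I, ApoA-IV and ApoC-III on their surface and leave through the lymph. Cholesterol enters through Npc1l1, while plant sterols and surplus cholesterol are returned to the lumen by the heterodimer of Abcg5 and Abcg8.

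The genes lie in a few neighbourhoods, and their positions are given on mm10, the annotation named in the header of the count table. Apoa1 (chr9:46228630-46230469, plus strand), Apoc3 (chr9:46233050-46235636, minus strand) and Apoa4 (chr9:46240844-46243458, plus strand) form a cluster in which 2580 bases separate Apoa1 from Apoc3 and 5207 bases separate Apoc3 from Apoa4. Dgat2 (chr7:99153663-99182713) and Mogat2 (chr7:99219084-99238611) both lie on the minus strand, 36370 bases apart. Apob (chr12:7977677-8016839, plus strand), Dgat1 (chr15:76502012-76511994, minus strand) and Npc1l1 (chr11:6211011-6230245, minus strand) stand alone. Abcg5 (chr17:84658174-84683011, minus strand) and Abcg8 (chr17:84676302-84700333, plus strand) are transcribed head to head. In RefSeq (GRCm38.p6, the same assembly as mm10), 109 bases separate the start of Abcg5 from the downstream of the 2 starts given for Abcg8. This stretch is shown because the ratio of the pair is one of the results, and the upstream sequences of Apoa1 and Apoa4 because these genes varied together across samples. Each is written 5′ to 3′ in the direction of the named gene, and capitals mark matches to the motifs searched.
Abcg8, chr17:84683012-84683120, plus strand: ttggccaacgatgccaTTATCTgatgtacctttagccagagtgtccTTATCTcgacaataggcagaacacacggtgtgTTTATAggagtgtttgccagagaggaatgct
Apoa1, chr9:46228380-46228629, plus strand: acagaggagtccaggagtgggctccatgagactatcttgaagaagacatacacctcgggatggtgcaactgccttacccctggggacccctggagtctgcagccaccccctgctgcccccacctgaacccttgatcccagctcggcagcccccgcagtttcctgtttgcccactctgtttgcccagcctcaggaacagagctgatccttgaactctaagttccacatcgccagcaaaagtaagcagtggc
Apoa4, chr9:46240594-46240843, plus strand: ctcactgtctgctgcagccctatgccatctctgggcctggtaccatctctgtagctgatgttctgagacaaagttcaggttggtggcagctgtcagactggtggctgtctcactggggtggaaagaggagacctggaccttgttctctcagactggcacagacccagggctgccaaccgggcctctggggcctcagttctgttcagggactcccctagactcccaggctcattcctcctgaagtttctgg

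Motifs were searched on both strands in the 250 bases upstream of every RefSeq start, 32851 windows in all. For the genes examined, 7 windows were found for 6 of the 10, namely Apoa1, Apoa4, Apob, Npc1l1, Abcg5 and Abcg8. The GATA motif AGATAA was present in 9.99% of all windows and in 2 of the 7. Both of these belonged to the region shared by Abcg5 and Abcg8, where 2 copies on the Abcg5 strand lie between the starts. The TATA box letters TATAAA were present in 12.4% of all windows and in 3 of the 7, those of Apob, Abcg5 and Abcg8, and the match in the Abcg8 window is the same one as in the Abcg5 window. The HNF1 motif TTAATNATT was present in 1.40% of windows and in that of Npc1l1. The HNF4-type motif AAAGTCC (3.58% of windows) and the DR1-like AAAGGTCA (1.34%) were matched in none of the 7, which says only that these exact letters are not in these windows.

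The libraries held 23610266 to 31629435 counted read pairs. Cd1d1 had 61.1 to 91.1 normalised counts in WT and 0 to 7.15 in CD1d-KO samples, and Cd1d2 had 2.95 to 4.89 and 0 to 1.95, so both targeted genes were lower in every library labelled CD1d-KO. The epithelial gene Epcam was between 52223 and 58699 normalised counts and the enterocyte gene Vil1 between 36315 and 47449, while the leukocyte gene Ptprc (CD45) was between 34.9 and 119 and the endothelial gene Pecam1 between 6.29 and 29.5. Hepatocytes also make apolipoproteins. The summed level of 12 hepatocyte markers was 105044 to 118698 normalised counts in CD1d-KO and 93754 to 110448 in WT samples. The urea cycle gene Cps1 alone was 104292 to 117881 and 93155 to 109967, so this sum is no measure of the other markers. Of the 7 that were tested, Cyp2e1 and Ttr were called higher and Tat lower in CD1d-KO samples, against 4.03% of all tested genes called. Alb stood at 1.96 to 61.6 normalised counts and Fgg was listed at 0 in all 8 samples. The part of these markers in the values below was not tested. In contrast, the summed level of 17 stomach markers was 844 to 1757 normalised counts in CD1d-KO and 2730 to 17980 in WT samples, and that of 20 leukocyte markers was 941 to 1128 and 1192 to 2640. Counts from Y-linked genes were found in CD1d-KO 1 (6235 counts) and CD1d-KO 2 (7293) alone, the other 6 samples having 0 or 1. The labels give no sex, and the study's methods state that the genotypes were matched for it. Both libraries with these counts were nevertheless CD1d-KO, so Y-linked expression was unbalanced between the groups. The results below are therefore also given without these libraries. In bulk samples, fewer cells of a type and less RNA per cell cannot be told apart.

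Levels of the 10 genes were first compared with each other per kilobase of exon, since Apob is far longer than the rest. Apoa1 was the most abundant in WT samples, with 14195 ± 3199 normalised counts per kilobase (SD, n = 4), which placed it 92nd among all genes over the 8 samples. Dgat1 followed with 6910 ± 414 per kilobase, then Apoa4 with 3436 ± 870. Npc1l1 (2601 ± 274 per kilobase), Mogat2 (2195 ± 380), Abcg5 (2183 ± 198) and Apob (1770 ± 281) formed a middle group, in which no neighbour in the order was separated from the next by more than the spread of the WT samples. Abcg8 (976 ± 99.0), Dgat2 (677 ± 182) and Apoc3 (557 ± 68.2) were the lowest. Apoa1 against Dgat1 and Apob against Abcg8 were the neighbours whose ranges did not overlap over all 8 samples. In CD1d-KO samples the order was the same except that Apob stood above Abcg5 and Apoc3 above Dgat2, and both of those pairs of ranges overlapped. The 10 genes together took 0.251 to 0.344% of counts in WT and 0.266 to 0.362% in CD1d-KO samples.

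No gene of the 10 passed the threshold of an adjusted p of 0.05 between CD1d-KO and WT by DESeq2, against a background of 4.03% of all tested genes. One of the 10, Abcg5, had an unadjusted p under 0.05 (background 15.3%), and edgeR's quasi-likelihood test also called 0 of the 10 (background 1.57%). The groups overlapped for all 10, whereas they did not overlap for 9.61% of tested genes. Log2 fold changes were positive for 7 genes and negative for 3, with a median of 0.11, beside a median of 0.00 over all tested genes. A p that misses the threshold does not show that levels were alike, and each difference is therefore given below with its 95% interval. The p-values set each difference against the fitted spread between mice of the same group. They do not separate genotype from other traits that differ between the groups.

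**Figure D1:**
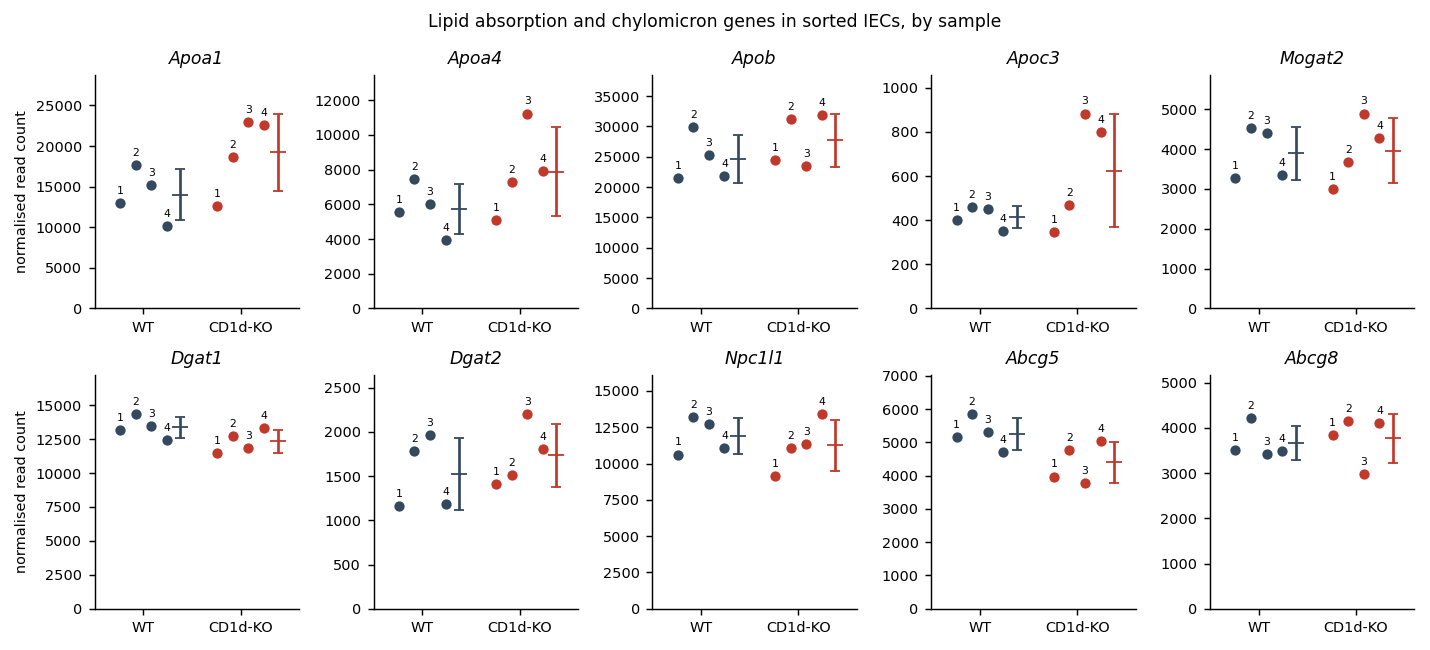
Normalised read counts (vertical axis, linear from 0) of the 10 lipid absorption genes in each of 4 WT and 4 CD1d-KO samples. Numbers are replicate numbers, and the bars beside the points are the mean ± SD. The groups overlap in all 10 panels, and CD1d-KO 3 and 4 stand above every WT sample for Apoa1, Apoa4 and Apoc3.

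The surface apolipoproteins had the largest positive log2 fold changes of the 10 and the widest range over the 8 samples, the highest sample being 2.24 times the lowest for Apoa1, 2.54 times for Apoc3 and 2.86 times for Apoa4. Within WT samples alone Dgat2 varied most, with a coefficient of variation of 26.8%. Apoa1, the main protein of HDL and a component of nascent chylomicrons, had 13043, 17642, 15203 and 10213 normalised counts in WT 1 to 4 and 12609, 18695, 22920 and 22604 in CD1d-KO 1 to 4. CD1d-KO 2, 3 and 4 exceeded all WT samples and CD1d-KO 1 fell below the WT median. The log2 fold change (CD1d-KO minus WT) was 0.45 ± 0.24 (SE), with an interval of -0.02 to 0.93 (DESeq2 adjusted p = 0.366).

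Apoa4, which rises with fat feeding and acts as a satiety signal, had 5544, 7440, 5995 and 3921 normalised counts in WT 1 to 4 and 5078, 7308, 11226 and 7929 in CD1d-KO 1 to 4. CD1d-KO 3 and 4 were above all WT samples, and CD1d-KO 1 and 2 lay within the WT range. The log2 fold change was 0.46 ± 0.30 (interval -0.12 to 1.04, DESeq2 adjusted p = 0.494). Apoc3, an inhibitor of lipoprotein lipase and of remnant uptake, had 400, 461, 451 and 351 normalised counts in WT 1 to 4 and 348, 469, 884 and 800 in CD1d-KO 1 to 4. CD1d-KO 3 and 4 were far above the other 6 samples, and CD1d-KO 1 was the lowest of all. Its log2 fold change of 0.59 ± 0.32 was the largest of the 10 (interval -0.04 to 1.22, DESeq2 adjusted p = 0.385), and the coefficient of variation was 41.2% in CD1d-KO against 12.2% in WT samples.

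Results for these genes depended on which CD1d-KO libraries were counted. In the 6 samples without Y-linked counts, Apoc3 passed the threshold with a difference of 1.02 ± 0.14 on the log2 scale (DESeq2 adjusted p = 2.01e-10), as the sole one of the 10 (background 2.57%). With Y-linked counts as a covariate in all 8 samples, Apoc3 was again the sole call (1.02, adjusted p = 8.1e-09, background 3.04%). In both fits the genotype difference rests on CD1d-KO 3 and 4, and whether it belongs to the mice without Y-linked genes or to these 2 libraries cannot be told apart. Apoa1 (0.70 ± 0.24) and Apoa4 (0.74 ± 0.31) did not pass in the 6 samples, with adjusted p-values of 0.109 and 0.267. Without CD1d-KO 1 alone, Apoa1 (0.61, adjusted p = 0.00267) and Apoc3 (0.79, adjusted p = 0.0023) were called, 2 of the 10 against a background of 3.22%. Without CD1d-KO 3, the log2 fold change of Apoc3 was 0.37.

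**Figure D2:**
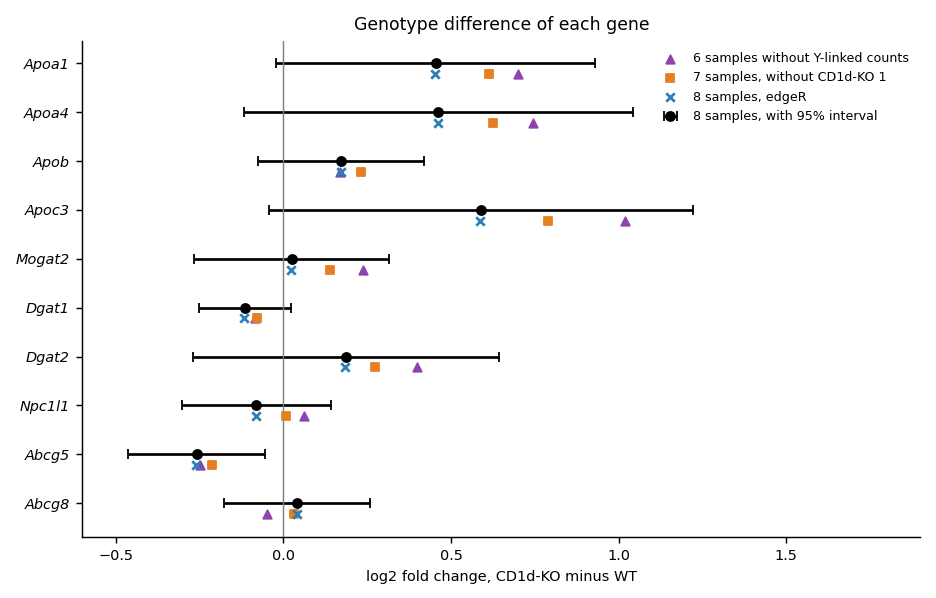
Log2 fold change of each gene, CD1d-KO minus WT. Black points and bars are the DESeq2 fit of 8 samples with its 95% interval. Triangles leave out the 2 samples with Y-linked counts, squares leave out CD1d-KO 1, and crosses are edgeR on 8 samples. For Apoc3 the value moves from 0.59 to 0.79 and 1.02, while Apob, Dgat1 and Abcg5 stay close to their value over 8 samples.

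Apob, the structural protein without which no chylomicron forms, was the most counted of the 10 genes, at 21494, 29895, 25257 and 21824 normalised counts in WT 1 to 4 and 24486, 31188, 23461 and 31851 in CD1d-KO 1 to 4. Unlike the surface apolipoproteins, it was higher in CD1d-KO 2 and 4 than in CD1d-KO 3. The log2 fold change was 0.17 ± 0.13, with an interval of -0.07 to 0.42 (DESeq2 adjusted p = 0.58).

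For the acyltransferases of triglyceride synthesis, the intervals of all 3 log2 fold changes included 0. Mogat2, which makes diacylglycerol from absorbed monoacylglycerol, ranged from 3263 to 4529 normalised counts in WT and from 2997 to 4893 in CD1d-KO samples, with a log2 fold change of 0.02 ± 0.15 (interval -0.27 to 0.32). Dgat1, the enzyme of the final acylation in the intestine, was the steadiest of the 10, with coefficients of variation of 5.99% in WT and 6.80% in CD1d-KO samples. It had 13172, 14365, 13488 and 12433 normalised counts in WT 1 to 4 and 11447, 12738, 11862 and 13302 in CD1d-KO 1 to 4, so that 2 CD1d-KO samples were below all WT samples. The log2 fold change of -0.12 ± 0.07 had an interval of -0.25 to 0.02 (DESeq2 adjusted p = 0.458). Dgat2, the other enzyme of that step, ranged from 1162 to 1961 in WT and from 1415 to 2204 in CD1d-KO samples, with a log2 fold change of 0.19 ± 0.23 (interval -0.27 to 0.64). On the scale of counts per kilobase, Dgat1 was above Dgat2 in every sample.

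Among the sterol transporters, the uptake protein Npc1l1, the target of ezetimibe, ranged from 10618 to 13198 normalised counts in WT and from 9119 to 13420 in CD1d-KO samples. Its log2 fold change was -0.08 ± 0.11 (interval -0.30 to 0.14), and the direction turned to 0.06 in the 6 samples without Y-linked counts. Abcg5, one subunit of the sterol exporter, had 5167, 5859, 5319 and 4704 normalised counts in WT 1 to 4 and 3975, 4770, 3794 and 5049 in CD1d-KO 1 to 4. CD1d-KO 1 and 3 were below all WT samples, and the other two lay within the WT range. The log2 fold change was -0.26 ± 0.10, with an interval of -0.46 to -0.06. The unadjusted p-value of DESeq2, 0.0125, was the lowest of the 10, and the adjusted p was 0.158. Without CD1d-KO 4 it was called (-0.33, adjusted p = 0.0342), 1 of the 10 against a background of 4.06%. Abcg8, the other subunit, had 3503, 4214, 3427 and 3495 normalised counts in WT 1 to 4 and 3851, 4143, 2974 and 4096 in CD1d-KO 1 to 4, with no common direction. Its log2 fold change was 0.04 ± 0.11 (interval -0.18 to 0.26).

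The ratio of the exporter subunits did not overlap between the genotypes. Reads of Abcg5 per read of Abcg8 numbered 1.48, 1.39, 1.55 and 1.35 in WT 1 to 4 and 1.03, 1.15, 1.28 and 1.23 in CD1d-KO 1 to 4. All 4 CD1d-KO samples were therefore below all 4 WT samples, CD1d-KO 3 and 4, which have no Y-linked counts, included. The mean log2 ratio was 0.52 ± 0.09 (SD, n = 4) in WT and 0.23 ± 0.13 in CD1d-KO samples, a difference of -0.30 that ranged from -0.34 to -0.24 when each sample was left out in turn. A ratio within a sample does not depend on the size factor. It does not say which subunit differed, neither of them passed the threshold on its own, and the difference of the ratio was described and not tested. Single genes did not overlap between the groups in 9.61% of cases, and the like share for ratios of 2 genes was not computed. The pair share 40 bases of annotated exon, 82 of the 3749 exon bases of Abcg8 lie within the span of Abcg5, and strand was not used in counting, so reads there cannot be assigned with certainty to one gene.

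The other 4 ratios overlapped between genotypes. Reads of Apoa1 per read of Apoa4 ranged from 2.35 to 2.61 in WT and from 2.04 to 2.85 in CD1d-KO samples. CD1d-KO 3 was the lowest and CD1d-KO 4 the highest of all 8. Apoa1 per Apoc3 was 29.1 to 38.3 in WT samples, 36.3 and 39.9 in CD1d-KO 1 and 2, and 25.9 and 28.3 in CD1d-KO 3 and 4. The latter 2 values lay below all WT values, and in these samples Apoc3 exceeded its WT mean by a larger factor than Apoa1 did. Reads of Dgat1 per read of Dgat2 ranged from 6.88 to 11.3 in WT and from 5.38 to 8.43 in CD1d-KO samples, and those of Mogat2 per Dgat2 from 2.25 to 2.83 and from 2.12 to 2.43.

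**Figure D3:**
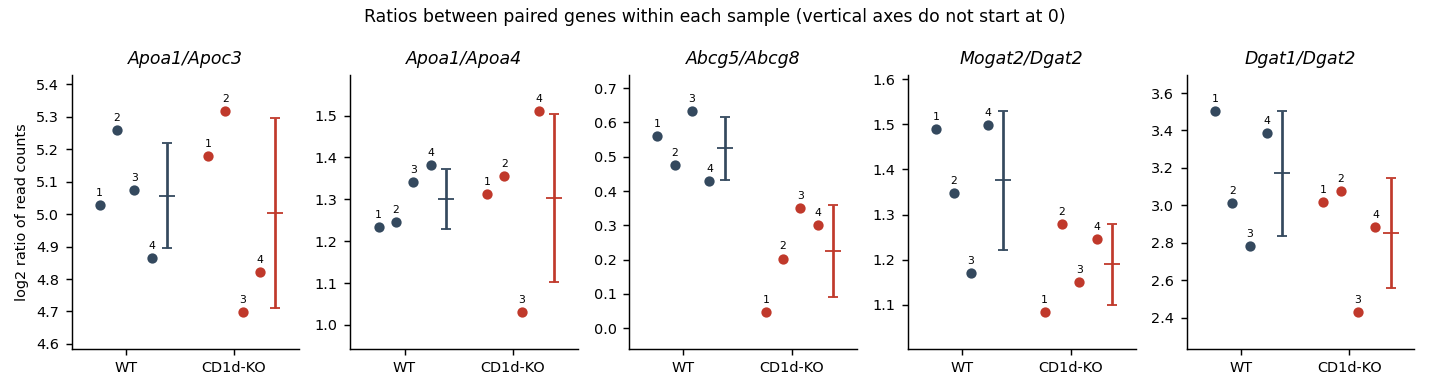
Log2 ratio of read counts between 5 pairs of genes within each sample (vertical axes, not starting at 0), with the mean ± SD of 4 samples beside the points. Abcg5/Abcg8 is the one pair without overlap, at 0.43 to 0.63 in WT and 0.05 to 0.35 in CD1d-KO samples.

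Variation between samples ran across the genotypes. The mean of the 10 genes, each centred on the log2 scale, was -0.18, 0.17, 0.04 and -0.29 in WT 1 to 4 and -0.25, 0.05, 0.20 and 0.26 in CD1d-KO 1 to 4. The mean of 22 mature enterocyte markers, none of them among the 10, was -0.19, 0.07, 0.11 and -0.23 in WT 1 to 4 and -0.26, 0.01, 0.25 and 0.24 in CD1d-KO 1 to 4. The same 3 samples (WT 4, CD1d-KO 1 and WT 1) were lowest and the same 2 (CD1d-KO 3 and 4) highest on both measures, which share their libraries. None of the 22 enterocyte markers was called by DESeq2 (background 4.03%), and their median log2 fold change was 0.14. Log2 fold changes were positive for 17 and negative for 5, and 5 had an unadjusted p under 0.05 (background 15.3%). Alpi, Sis and Krt20, a phosphatase, a disaccharidase and a keratin of villus cells, had log2 fold changes of 0.05, 0.22 and 0.01. None of 12 crypt and cycling markers was called either (background 4.03%), Olfm4 standing at 0.20 and Mki67 at -0.01.

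Immediate early and heat shock genes, which are induced when tissue is dissociated, also varied within the groups. The mean of 15 such genes was 0.47, -0.02, -0.41 and 0.35 in WT 1 to 4 and 0.07, 0.38, -0.71 and -0.13 in CD1d-KO 1 to 4. It was thus positive in the 3 samples in which the lipid absorption genes were lowest and negative in the 2 in which they were highest. In CD1d-KO 2, however, it was 0.38 with the lipid absorption genes at 0.05. In WT 2 and 3 it was -0.02 and -0.41 with these genes at 0.17 and 0.04. None of the 15 was called between the genotypes (background 4.03%), which does not show that their levels were alike. The part of enterocyte maturity and of the dissociation response in the values of Apoa1, Apoa4 and Apoc3 was not tested.

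**Figure D4:**
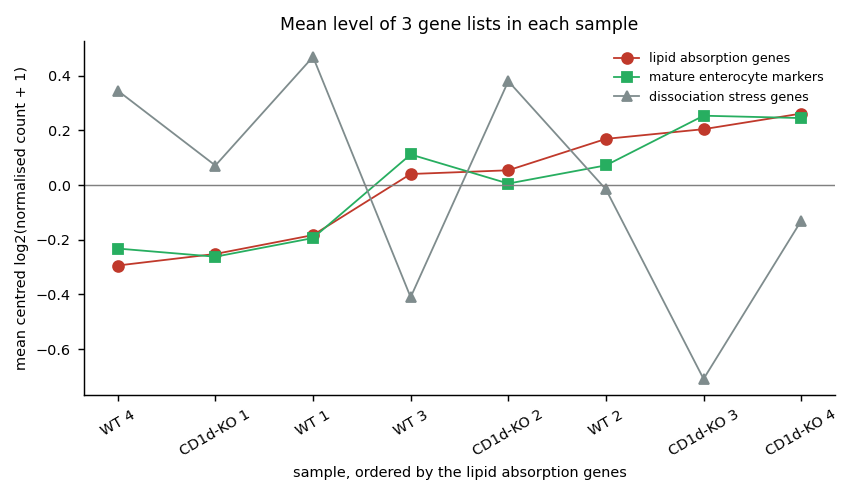
Mean centred log2(normalised count + 1) of the 10 lipid absorption genes, 22 mature enterocyte markers and 15 dissociation stress genes in each sample, with samples ordered along the horizontal axis by the first of these. The enterocyte markers follow the lipid absorption genes from WT 4 (-0.29) to CD1d-KO 4 (0.26), and the stress genes are lowest in CD1d-KO 3 (-0.71).

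Within the 10 genes, Apoa1 was closest to Apoa4 across the 8 samples (Pearson's r = 0.95, given as a description) and to Apoc3 (0.90), and Dgat1 was closest to Abcg5 (0.96). Abcg8 was closest to Apob (0.76), and both Abcg8 and Abcg5 had negative values with Apoc3 (-0.23 and -0.22). The genes outside the 10 whose pattern was most like their mean, out of 11711 with a mean of at least 50 normalised counts, were Golt1a (r = 0.98), Mpp1 (0.96), Ambp (0.95), Tubal3 (0.95) and Slc5a11 (0.95). None of these 5 was called between genotypes. Slc5a11, a sodium and inositol cotransporter, for instance, had 552 normalised counts in CD1d-KO 1 and 1000 in CD1d-KO 3.

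The steps on either side of the 10 genes were described with 9 lists of other lipid genes. Of 139 listed genes 129 were tested, of which 7 were called higher in CD1d-KO samples (background 1.65%) and 4 lower (background 2.38%). The median log2 fold change of the 129 was 0.00, as over all tested genes. Of the 11 calls, 3 were in the list of luminal lipases and 4 in that of fatty acid uptake. The lists were written with earlier results of these data known, so their counts are a description only.

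All 3 tested genes of the luminal lipase list were called higher in CD1d-KO samples (background 1.65%), with no overlap between groups (background 9.61%). The remaining 4, among them Pnlip, had too few counts to be tested. Pnliprp2, a lipase of galactolipids and phospholipids, rose from 435, 464, 480 and 510 normalised counts in WT 1 to 4 to 1160, 682, 1103 and 1391 in CD1d-KO 1 to 4. Clps, the colipase that anchors lipase on bile-coated droplets, rose from 288, 358, 329 and 279 to 559, 372, 627 and 675, a log2 fold change of 0.83 ± 0.17 (DESeq2 adjusted p = 0.000105). Both held under all 16 alternatives. Pnliprp1, a lipase-related protein, rose by 1.42 ± 0.35 (DESeq2 adjusted p = 0.00316) from counts of only 11.5 to 17.1, and its call was lost under 4 alternatives. Its log2 fold change was 1.43 in the 6 samples without Y-linked counts (adjusted p = 0.137) and 1.43 with these counts as covariate (0.0574). It was 1.42 with the replicate block (0.0878) and 1.22 with the stomach score as covariate (0.616). That score did not overlap between the genotypes, so the last fit cannot separate it from genotype. Of 14 exocrine pancreas markers 3 were tested and 0 called by DESeq2, 1 of them having an unadjusted p under 0.05. Their summed level was 653 to 876 normalised counts in CD1d-KO and 661 to 799 in WT samples, and Prss1, Prss2, Cpb1, Amy2a5 and Pnlip were listed at 0 in every sample.

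Of 13 genes of fatty acid uptake and trafficking, 4 were called, all higher (background 1.65%), and 12 had positive log2 fold changes (median 0.31). Cd36, a fatty acid receptor of the brush border, had 216, 348, 341 and 242 normalised counts in WT 1 to 4 and 359, 531, 523 and 632 in CD1d-KO 1 to 4, without overlap (log2 fold change 0.83 ± 0.19, DESeq2 adjusted p = 0.000987). Cd36 was called under all 16 alternatives. Acsl1 (0.33 ± 0.10, adjusted p = 0.0218) and Acsl3 (0.31 ± 0.10, adjusted p = 0.0457) activate fatty acids to their CoA esters, and Scp2 (0.31 ± 0.10, adjusted p = 0.0446) is a sterol and lipid carrier. All 3 lost their call with edgeR and in at least 5 of the 8 fits that left out 1 sample. The binding protein Fabp1 had 20042 normalised counts in CD1d-KO 3 and 6412 to 11050 in the other 7 samples (0.53 ± 0.34, adjusted p = 0.492). Fabp2 had 23792 and 23425 in CD1d-KO 3 and 4 and 11199 to 14925 in the other 6 samples (0.46 ± 0.25, adjusted p = 0.387).

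Downstream of uptake, DESeq2 called 0 of 12 tested glycerolipid synthesis genes, 0 of 16 lipid droplet genes and 0 of 13 chylomicron assembly genes. The background was 4.03%. Of these genes, 2, 1 and 2 had an unadjusted p under 0.05 (background 15.3%). Groups did not overlap for 3, 1 and 1 of them (background 9.61%). Plin2, the coat protein of cytosolic droplets, came nearest to the threshold. It had 2360 to 2740 normalised counts in WT and 2838 to 3291 in CD1d-KO samples, without overlap (0.24 ± 0.08, DESeq2 adjusted p = 0.0513). Gpam, the first acyltransferase of the glycerol phosphate route (0.17 ± 0.07, adjusted p = 0.167), Lpin3, a phosphatidate phosphatase (-0.18 ± 0.07, adjusted p = 0.132), and Mia2, needed for export of large cargo from the endoplasmic reticulum (0.13 ± 0.05, adjusted p = 0.128), also did not overlap between groups. Plin3, another droplet coat protein (-0.16 ± 0.09), and Apobec1, the enzyme that edits Apob mRNA to the ApoB48 form (-0.24 ± 0.11), overlapped. Mttp had a log2 fold change of 0.14 ± 0.11 (adjusted p = 0.626).

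Of 18 genes of cholesterol uptake, esterification and export 0 were called by DESeq2 (background 4.03%), and 3 had an unadjusted p under 0.05 (background 15.3%). The sterol transfer proteins Gramd1a (-0.46 ± 0.15, adjusted p = 0.0591) and Gramd1c (0.29 ± 0.11, adjusted p = 0.126) had the most extreme statistics. In cholesterol synthesis 1 of 22 genes was called (background 4.03%), Pmvk, the phosphomevalonate kinase. It fell from 828, 842, 732 and 798 normalised counts in WT 1 to 4 to 620, 575, 654 and 534 in CD1d-KO 1 to 4, without overlap, and by 0.43 ± 0.09 on the log2 scale (DESeq2 adjusted p = 0.000346), a call held under all 16 alternatives. Mvd, the next enzyme of the pathway, stood at -0.24 ± 0.10 (adjusted p = 0.157).

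Of 24 transcription factors linked to lipid absorption, 2 were called, both lower in CD1d-KO samples (background 2.38%) and without overlap (background 9.61%). Ppard, a nuclear receptor for fatty acids, had 7439 to 8317 normalised counts in WT and 5881 to 6971 in CD1d-KO samples (-0.27 ± 0.07, DESeq2 adjusted p = 0.0081), and the coactivator Ppargc1b had 3308 to 4254 and 2829 to 3063 (-0.30 ± 0.08, adjusted p = 0.0147). With edgeR their adjusted p-values were 0.0675 and 0.0586. Ppard also lost its call without WT 2 (adjusted p = 0.071) or WT 3 (0.0553), and Ppargc1b without CD1d-KO 2 (0.0635) or in the 6 samples without Y-linked counts (0.0761). With the stomach score as covariate the log2 fold changes were -0.14 for Ppard (adjusted p = 0.819) and -0.16 for Ppargc1b (0.83). That score was 0.30 to 1.47 in WT and -1.11 to 0.055 in CD1d-KO samples, so this fit cannot separate it from genotype. Of 8 other apolipoproteins tested, Clu (clusterin) was called (background 4.03%). Its level was 187, 106, 769 and 223 normalised counts in WT 1 to 4 and 25.0, 31.4, 47.9 and 89.3 in CD1d-KO 1 to 4, which gave a log2 difference of -2.73 ± 0.72 (DESeq2 adjusted p = 0.00812). Clu and the stomach score were both highest in WT 3. With that score as a covariate the log2 fold change of Clu was 0.01 (adjusted p = 0.998), a fit with the same limit. The part of stomach cells in the values of Clu was not tested. Without CD1d-KO 2 its adjusted p was 0.0721, in the 6 samples without Y-linked counts 0.261, and with these counts as covariate 0.155. Apoe, the other gene named from this list by rule, stood at -0.37 ± 0.23 and was not called.

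**Figure D5:**
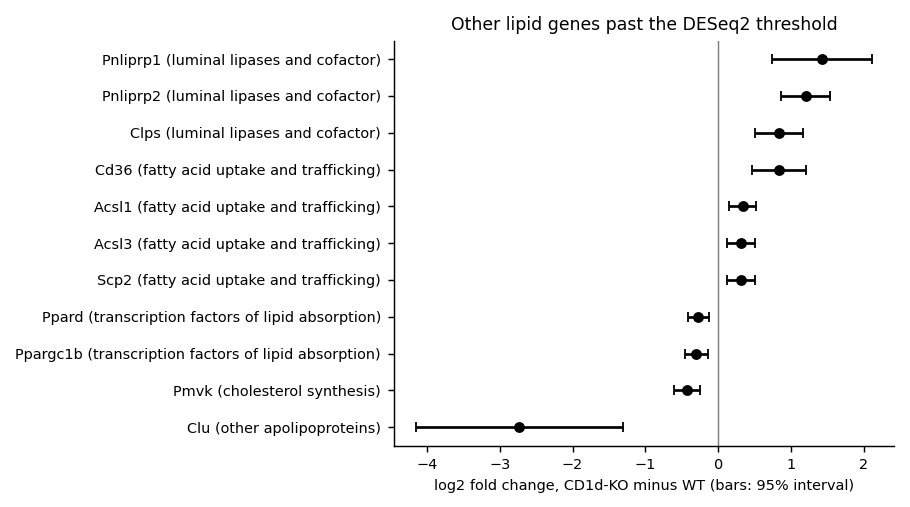
Log2 fold changes (CD1d-KO minus WT, horizontal axis) of the 11 other lipid genes called by DESeq2, each with its list in parentheses and its 95% interval as a bar. The 7 higher ones run from Scp2 (0.31) to Pnliprp1 (1.42), and the 4 lower ones from Ppard (-0.27) to Clu (-2.73).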

How the data were processed

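The authors deposited 1 table of raw counts per gene for 8 samples, which the file headers credit to featureCounts 1.6.4. Fragments were assigned to exons of the refGene annotation of mm10, from primary alignments and without use of strand. The submitters' processing notes name HISAT2 and GRCm39, and the mm10 coordinates of the table were used here as given. Genes without counts in any sample were dropped, leaving 19088. Genotypes were compared with DESeq2 1.42.0 (Wald test, unshrunken log2 fold changes, Benjamini-Hochberg adjustment, independent filtering at a mean of 2.41), with 15446 genes tested and calls at an adjusted p under 0.05. Normalised counts are counts divided by DESeq2 size factors. Intervals are the log2 fold change ± the normal 95% range of its SE. Alternatives (16) were edgeR 4.0.16, TMM factors, size factors without the 50 most abundant genes, a filter of 10 counts in 4 samples, each sample left out, a replicate block, Y-linked counts (left out or as covariate) and the stomach score. On data simulated from these libraries (19088 genes), DESeq2 recovered 79% of 100 genes changed by 0.5 on the log2 scale. It recovered 99% of 100 genes changed by 1. The changed genes were drawn at random from those with a mean of at least 50 normalised counts, so recovery of lower genes was not measured. Counts were drawn independently for each gene, so variation that genes share across samples was not simulated. The shares recovered are therefore not those for the 10 genes. In the same data, 29 genes that had not been changed were also called. Replicates were not copies of one library, since chi-square per degree of freedom was at least 9.73 for every pair within a group. The 10 genes and the lists were chosen with earlier results of these data known. Besides the 10 genes, the text names every called gene and the 2 most extreme statistics of each pathway list, 3 enterocyte and 2 crypt markers, the targeted genes, and the 5 most alike genes. Fabp1, Fabp2, Mttp, Epcam, Vil1, Ptprc, Pecam1, Alb, Cps1, Cyp2e1, Ttr, Tat and the markers listed at 0 were named after their values were seen. Depth limits the precision of low genes such as Pnliprp1.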

Additional observations from a re-analysis of the deposited data

Results flagged for a closer look

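Within the 4 samples of a genotype, a sample was taken to stand apart where its gap to the nearest other sample was above Dixon's 95% critical share of the group's range. This was met by 2 of 62 groups examined, where chance alone gives about 1 in 20. Abcg8 was 4210 normalised counts in WT 2, against 3430 to 3500 in the other WT samples. Pnliprp1 was 17.1 normalised counts in WT 4, against 11.5 to 11.8 in the other WT samples.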

How the results depend on the processing

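Genes called numbered 622 by DESeq2 and 299 with edgeR, 372 in the samples without Y-linked counts, 113 with the stomach score as covariate, and 323 to 646 when 1 sample was left out (323 without CD1d-KO 2, 385 without WT 2, 406 without WT 1). For the 10 lipid absorption genes, 143 alternative values kept direction and call, 12 turned direction and 5 became calls. Calls among them numbered 0, but 1 in the samples without Y-linked counts and 1 with these as covariate (Apoc3, 1.02 in both), and 0 to 2 with 1 sample left out. With 1 sample left out, Apoa1 ranged from 0.33 to 0.61, Apoc3 from 0.37 to 0.79, Abcg5 from -0.33 to -0.20, Mogat2 from -0.094 to 0.139, Npc1l1 from -0.177 to 0.00885 and Abcg8 from -0.00735 to 0.139. Npc1l1 turned to 0.0603 in the 6 samples lacking Y-linked counts, 0.0591 with these counts as covariate and 0.223 with the stomach score, and Abcg8 to -0.049 and -0.0502 in the former 2 settings. Other lipid genes called fell from 11 to 6 with edgeR and 5 with the stomach score, and ranged from 6 to 13 with 1 sample left out. With the stomach score, which differs between the genotypes, Acsl3 turned to -0.0838, Plin3 to 0.0637 and Clu to 0.00881. The causes were not tested. With the replicate block, 569 genes and 0 of the 10 were called, and Abcg5 stood at -0.27 (adjusted p = 0.0621). Samples of the same number correlated at 0.00 to 0.29 (over 0.1 for 2 of 4 numbers). For 2 of the 4 numbers, 1 and 3, the WT sample most like the CD1d-KO sample was that of the same number. These values do not decide whether the numbers pair the samples.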
